A study of Mus musculus with 8 samples.

Results

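Transcripts of inhibitory receptors were compared between CCR8+ and CCR8- CD4+ conventional T (Tconv) cells sorted from mouse tumors. The members were chosen by symbol as 8 receptors or surface proteins of inhibitory pathways (Pdcd1, Ctla4, Lag3, Tigit, Havcr2, Btla, Cd96 and Cd200) and Cd226, the activating receptor that competes with Tigit, and all 9 were found among the 11233 genes of the table. All 9 had a mean normalized count of at least 10 over the libraries and were tested among 11032 genes. The data were 8 bulk RNA-Seq libraries, 4 from CCR8+ cells and 4 from CCR8- cells. Both groups were tumor-infiltrating Foxp3 EGFP-negative Tconv cells of genotype Foxp3-EGFP_DTR treated with DTx. The tumors were subcutaneous B16-F10, a transplantable mouse melanoma line. In Foxp3-EGFP_DTR mice EGFP and a human receptor for diphtheria toxin (DTx) are made under the Foxp3 gene, so that the toxin kills regulatory T (Treg) cells and any remaining ones can be sorted out by their fluorescence. All 8 libraries therefore came from Treg-depleted hosts, and no library from animals with Treg cells was compared here. The labels give no age or sex and do not say whether 1 library stands for 1 animal, nor whether a CCR8+ and a CCR8- library of the same replicate number came from the same animal. The study describes the libraries of a group as biological replicates collected on a single day, so the p-values measure the spread between such replicates within that day.

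Inhibitory receptors restrain T cells after activation. PD-1, encoded by Pdcd1, carries tyrosine motifs that recruit the phosphatases SHP-2 and SHP-1 to the T cell receptor and CD28, whereas CTLA-4 binds the CD28 ligands CD80 and CD86 with higher affinity than CD28 and removes them from antigen-presenting cells. TIGIT, CD96 and the activating receptor CD226 share ligands of the nectin family, among them CD155, the product of Pvr. Activated T cells induce several of these receptors, and Treg cells hold CTLA-4 and TIGIT at high levels.

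The values were normalized counts, that is read counts that the authors divided by 1 factor per library. Library totals were between 11469410 and 14394101, and recovered reads came to between 12067780 and 17802628 per library. Between 8569 and 10882 genes were detected per library, and 3 reads corresponded to between 2.21 and 3.42 normalized counts. The sort was checked with Ccr8, whose mean was 20105 ± 16630 after the CCR8+ gate against 3546 ± 2284 after the CCR8- gate (SD, n = 4 each), with all 4 CCR8+ libraries above all 4 CCR8- libraries. Cd4 was close at 8330 ± 721 and 8431 ± 1494 (SD, n = 4 each), with a 95% interval of the log2 fold change of -0.45 to 0.45. Genes with 0 counts in 1 library and 100 or more in each of the other 7 numbered 242 for CCR8- replicate 1, 44 for CCR8+ replicate 1 and 36 for CCR8+ replicate 3, and 0 for each remaining library. The summed value of 12 macrophage and monocyte genes was between 3223 and 27669 in CCR8+ libraries and between 36.4 and 83747 in CCR8- libraries, and 7 melanoma genes together were between 232 and 21841 and between 105 and 17389. The summed B cell genes were between 0 and 447 in CCR8+ libraries and between 29.4 and 365 in CCR8- libraries, from Cd79a, Cd79b and Blk, with Ms4a1 at 0 in all 8. The 2 CD8 T cell genes together were between 478 and 1227 in CCR8+ libraries and between 980 and 3805 in CCR8- libraries. Foxp3 was not among the genes given, so it could not be checked. Of other genes linked to Treg cells, Ikzf2 was 141 ± 173 in CCR8+ and 231 ± 41.8 in CCR8- cells (SD, n = 4 each). Lrrc32 was 77.7 ± 32.4 and 41.0 ± 47.4 and Il2ra 5277 ± 4619 and 1853 ± 707, in the same order, each overlapping between groups. Whether Treg cells remained was not tested.

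Ctla4, Pdcd1 and Cd96 were the members whose groups did not overlap, Ctla4 and Pdcd1 with every CCR8+ library higher and Cd96 with every CCR8+ library lower. Their promoter windows are shown because these 3 genes carry the differences described below. Windows of RefSeq for GRCm38.p6, from 250 bases before to 50 bases after each start, were found for 7 members (Pdcd1, Ctla4, Tigit, Havcr2, Btla, Cd96 and Cd200). The sequences are written as the table gives them for each gene's strand, and capitals mark matches on either strand of GGAAA, the core bound by NFAT, a factor activated by T cell receptor signals.
Ctla4, plus strand, chr1:60908775-60909074: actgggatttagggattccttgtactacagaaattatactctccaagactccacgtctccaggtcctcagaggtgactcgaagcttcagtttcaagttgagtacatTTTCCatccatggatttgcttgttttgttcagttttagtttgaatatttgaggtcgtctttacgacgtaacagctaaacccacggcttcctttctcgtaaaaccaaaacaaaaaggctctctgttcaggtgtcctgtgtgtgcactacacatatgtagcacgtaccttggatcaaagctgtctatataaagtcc
Pdcd1, minus strand, chr1:94052504-94052803: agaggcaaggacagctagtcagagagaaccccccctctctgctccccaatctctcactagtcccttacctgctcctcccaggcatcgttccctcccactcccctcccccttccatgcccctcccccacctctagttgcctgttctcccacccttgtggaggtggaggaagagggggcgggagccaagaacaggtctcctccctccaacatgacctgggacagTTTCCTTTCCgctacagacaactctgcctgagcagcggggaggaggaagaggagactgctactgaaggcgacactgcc
Cd96, minus strand, chr16:46120199-46120498: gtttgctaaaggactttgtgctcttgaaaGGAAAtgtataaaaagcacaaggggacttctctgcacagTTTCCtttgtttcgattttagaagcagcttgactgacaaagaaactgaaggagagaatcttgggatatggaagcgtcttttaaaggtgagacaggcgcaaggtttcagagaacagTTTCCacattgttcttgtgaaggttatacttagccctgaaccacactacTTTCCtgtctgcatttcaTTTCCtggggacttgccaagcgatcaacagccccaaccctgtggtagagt

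The Ctla4 window held 1 match, the Pdcd1 window 2 that adjoin, and the Cd96 window 5. Tigit held 2 matches, and Havcr2, Btla and Cd200 held 0. Of all 32851 promoter windows of this length, 61.3% held at least 1 match, so the letters were common. The AP-1 letters TGANTCA, found in 7.81% of all windows, occurred 1 time in Havcr2 and in none of the other 6 windows. The STAT letters TTCNNNGAA (8.3% of all windows) occurred 1 time in Cd96, and the GATA letters AGATAA (11.2%) 1 time each in Tigit and Cd200. A match describes the letters of the window and is not a measured binding site.

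By position, 4 of the 9 members share a stretch of chromosome 16 and the others are spread over 4 chromosomes. In GENCODE M21 on GRCm38, a later build than the files use, Tigit (43648867 to 43664146, minus strand), Btla (45224315 to 45257670, plus strand), Cd200 (45382135 to 45409053, minus strand) and Cd96 (46035657 to 46120251, minus strand) are all on chromosome 16. Ctla4 (60887000 to 60915832, plus strand) lies on chromosome 1 between Cd28 (60716800 to 60773359) and Icos (60977927 to 61000320), the genes of 2 costimulatory receptors, and the printed Ctla4 window lies within the gene span of that annotation. Pdcd1 is also on chromosome 1 (94038305 to 94052553, minus strand), Lag3 on chromosome 6 (124904361 to 124911705, minus strand), Havcr2 on chromosome 11 (46454935 to 46481255, plus strand) and Cd226 on chromosome 18 (89176967 to 89272229, plus strand). The exons of the 9 members share 0 bases with exons of other genes in that annotation.

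To compare levels between genes, normalized counts were divided by the exonic length in kilobases. In CCR8+ cells Ctla4 had the highest mean level, 11085 ± 5215 normalized counts per kb (SD, n = 4), followed by Pdcd1 at 7229 ± 1485, and the ranges of these 2 overlapped. Tigit came next at 2614 ± 1186 per kb and overlapped neither Pdcd1 above it nor Havcr2 below it. Havcr2 (624 ± 139), Cd200 (354 ± 266), Cd226 (352 ± 31.4), Cd96 (324 ± 223) and Btla (159 ± 118) followed, with each neighbor overlapping the next. Lag3 was lowest at 21.2 ± 20.5 per kb, apart from Btla. In CCR8- cells Ctla4 (4144 ± 886), Pdcd1 (3680 ± 1304) and Tigit (3023 ± 1447) led with overlapping neighbors, and Cd96 came after Tigit at 865 ± 270 per kb, apart from Tigit and from Havcr2 below it. The order below Cd96 was Havcr2 (346 ± 162), Cd226 (327 ± 41.1), Cd200 (157 ± 120), Btla (122 ± 29.6) and Lag3 (6.48 ± 6.94), in which only Btla and Lag3 were apart. Ctla4 made up 48.7% of the summed level of the 9 members in CCR8+ cells and 32.7% in CCR8- cells. For Tigit these shares were 11.5% and 23.9%, and for Cd96 1.42% and 6.83%. A share also falls where other members rise, and the Tigit levels of 2614 ± 1186 and 3023 ± 1447 per kb overlapped between groups.

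**Figure D1:**
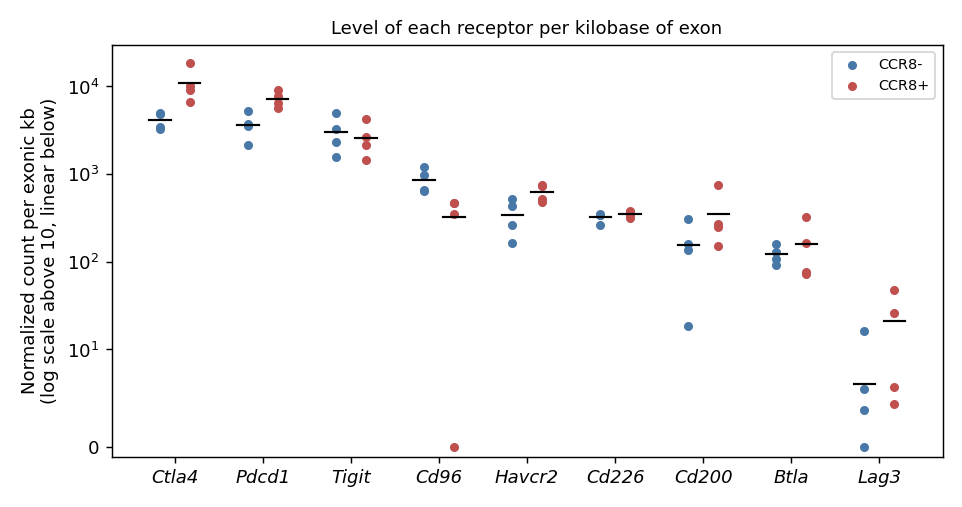
Normalized count per exonic kilobase (y axis, log scale above 10 and linear below) of each receptor (x axis) in the 4 CCR8- and 4 CCR8+ libraries; points are libraries and black lines are group means. Ctla4, Pdcd1 and Tigit lie above the other 6 genes in both groups, and 1 CCR8+ library has Cd96 at 0.

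Of the 9 members, 0 passed limma at an adjusted p under 0.05 over all genes, as did 0 of the 11032 tested genes (0%), where the smallest adjusted p was 0.788. At an unadjusted p under 0.05, 3 members passed (Pdcd1, Ctla4 and Havcr2), against 5.09% of all tested genes. The groups did not overlap with CCR8+ higher for 2 members (2.37% of all tested genes) and with CCR8+ lower for 1 (2.03%), and they overlapped for 6. The log2 fold change was above 0 for 7 members and below 0 for Tigit and Cd96, with a median of 0.96 against 0.04 over all tested genes. DESeq2, a tool named in the submitters' processing notes, was run on recovered reads with the groups alone. Its Wald test called 1 member, Ctla4, against 0.245% of all tested genes. The quasi-likelihood test of edgeR called 0 members and gave the same 3 members as limma an unadjusted p under 0.05. The smallest p that exact permutation can give with 4 against 4 libraries is 0.0286. In bulk libraries, fewer cells holding a transcript and less of it per cell cannot be told apart.

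**Figure D2:**
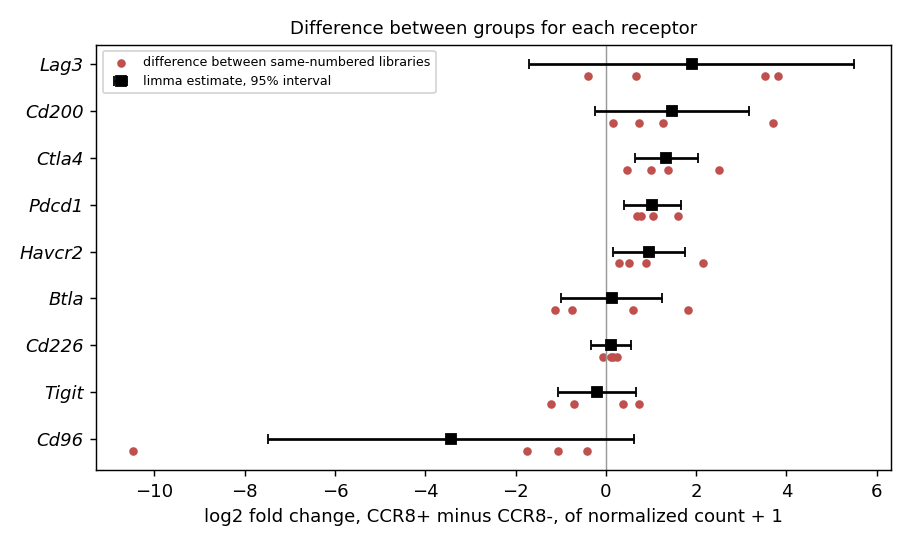
Log2 fold change of normalized count + 1, CCR8+ minus CCR8- (x axis), for each receptor (y axis); squares with bars are limma estimates with 95% intervals and red points are differences between libraries of the same replicate number. The intervals of Ctla4, Pdcd1 and Havcr2 lie above 0, and the 4 red points of Ctla4, Pdcd1, Havcr2 and Cd200 are all above 0.

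Ctla4, the CD28 homolog that competes for CD80 and CD86, showed the difference with the smallest p-value of the 9. Its normalized counts were 8108, 11164, 7662 and 11692 in CCR8- replicates 1 to 4 and 21079, 15421, 43338 and 23473 in CCR8+ replicates 1 to 4. The lowest CCR8+ library was above the highest CCR8- library, and CCR8+ replicate 3, which also had the highest Ccr8 value of 42508, stood highest. The means were 25827 ± 12152 and 9657 ± 2065 (SD, n = 4 each), a log2 fold change of 1.34 ± 0.32 (SE, 95% interval 0.64 to 2.04, limma adjusted p = 0.8286, exact two-sided permutation p = 0.0286, the smallest possible). Between libraries of the same number the log2 differences were 1.38, 0.47, 2.50 and 1.01. The DESeq2 log2 fold change was 1.42 with an adjusted p of 0.00576, and with each library left out in turn that adjusted p was between 0.00044 and 0.0403, so that the call held in all 8 fits. Without CCR8+ replicate 3 the limma log2 fold change was 1.05.

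Cd28 itself, which delivers the costimulatory signal that CTLA-4 opposes, was close in both groups at 9381 ± 687 and 10045 ± 1722 (SD, n = 4 each, log2 fold change -0.09 ± 0.20 SE, 95% interval -0.53 to 0.35). The ratio of Ctla4 to Cd28 counts was 0.912, 0.903, 0.892 and 1.13 in CCR8- replicates 1 to 4 and 2.08, 1.82, 4.55 and 2.49 in CCR8+ replicates 1 to 4. Every CCR8+ ratio was thus above every CCR8- ratio, and CCR8- replicates 1 to 3 lay within a narrow range. The ratio was 2.68-fold higher in CCR8+ cells (log2 difference 1.42, exact two-sided permutation p = 0.0286) and higher in 4 of 4 same-numbered comparisons. Icos, the inducible costimulatory receptor on the other side of Ctla4, went the other way in every same-numbered comparison, with 11996 ± 5195 in CCR8+ and 19062 ± 5287 in CCR8- cells (SD, n = 4 each), a log2 fold change of -0.75 ± 0.36 (SE, exact permutation p = 0.143). Its groups overlapped.

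**Figure D3:**
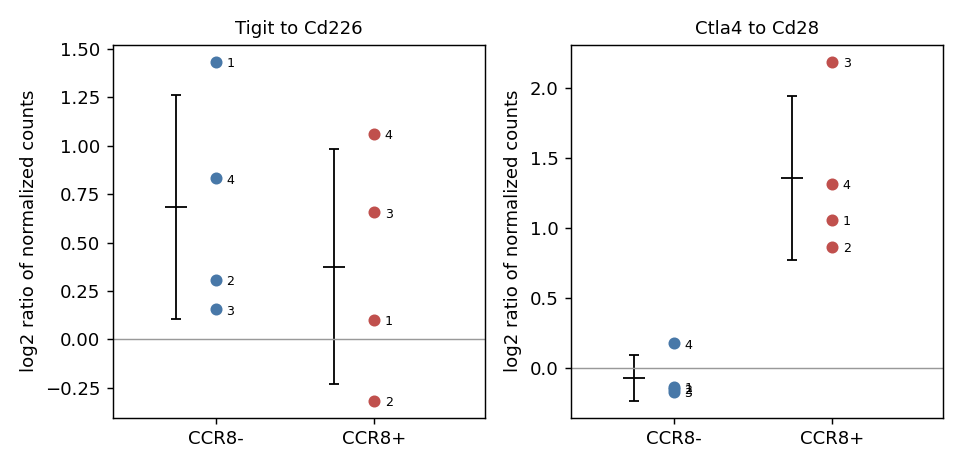
Log2 ratio of normalized counts (y axis) of Tigit to Cd226 (left) and Ctla4 to Cd28 (right) in CCR8- and CCR8+ libraries (x axis); points are libraries with their replicate numbers, and bars are the mean and SD of 4. The Tigit to Cd226 ratios of the groups interleave, and all 4 Ctla4 to Cd28 ratios of CCR8+ cells are above all 4 of CCR8- cells.

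Pdcd1, encoding PD-1, was 4115, 6784, 7246 and 10260 in CCR8- replicates 1 to 4 and 12496, 10939, 14877 and 17499 in CCR8+ replicates 1 to 4. The groups did not overlap, although the highest CCR8- library (10260) and the lowest CCR8+ library (10939) were close. The means were 13953 ± 2866 and 7101 ± 2518 (SD, n = 4 each), a log2 fold change of 1.02 ± 0.29 (SE, 95% interval 0.39 to 1.66, limma adjusted p = 0.8286, exact permutation p = 0.0286). Same-numbered libraries differed by 1.60, 0.69, 1.04 and 0.77 on the log2 scale, all toward CCR8+. DESeq2 gave an adjusted p of 0.139, and of 0.00121 when the replicate number was added to its model. No source says what that number marks. The ligand transcripts Cd274 (PD-L1, log2 fold change -0.06 ± 0.31 SE) and Pdcd1lg2 (PD-L2, 0.38 ± 0.33 SE) were present in all 8 libraries and overlapped between groups.

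Havcr2 encodes TIM-3, a receptor of activated and dysfunctional T cells that macrophages and dendritic cells also express. Its counts were 448, 716, 1167 and 1431 in CCR8- replicates 1 to 4 and 2002, 1322, 1422 and 2044 in CCR8+ replicates 1 to 4. The groups overlapped through CCR8- replicate 4 alone, without which they did not overlap. The means were 1697 ± 378 and 940 ± 441 (SD, n = 4 each), with a log2 fold change of 0.96 ± 0.36 (SE, 95% interval 0.17 to 1.75, limma adjusted p = 0.838, exact permutation p = 0.0857), and CCR8+ was higher in 4 of 4 same-numbered comparisons, by between 0.29 and 2.16. The summed macrophage and monocyte genes were 36.4, 4211, 1575 and 83747 in CCR8- replicates 1 to 4 and 27669, 18493, 3223 and 25605 in CCR8+ replicates 1 to 4. Of the 12 genes, 11 had a log2 fold change above 0, with a median of 2.11, and 0 were called. The library with the lowest Havcr2 value also had the lowest sum, and CCR8- replicate 4 had the highest value of its group and the highest sum of all 8. The Havcr2 value of CCR8- replicate 4 was below those of CCR8+ replicates 1 and 4, whose sums were lower. CCR8+ replicate 3 had a lower sum than CCR8- replicate 2 (3223 against 4211) and a higher Havcr2 value (1422 against 716). The cells were enriched for CD4+ T cells and sorted, and the methods describe a TCRβ+ CD4+ gate for tumor Tconv cells. Macrophage transcripts were still counted, with Lyz2 between 1396 and 19994 in CCR8+ libraries and between 14.8 and 28853 in CCR8- libraries. The part of macrophages in the Havcr2 difference was not tested.

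Cd200 encodes a surface glycoprotein that engages the inhibitory receptor CD200R on myeloid cells and activated T cells. It was 62.1, 453, 1030 and 537 in CCR8- replicates 1 to 4 and 818, 506, 2474 and 899 in CCR8+ replicates 1 to 4. CCR8+ was higher in 4 of 4 same-numbered comparisons, but the groups overlapped widely, and CCR8- replicate 1 stood low and CCR8+ replicate 3 high. The log2 fold change was 1.47 ± 0.78 (SE, 95% interval -0.24 to 3.17, exact permutation p = 0.257), and it was 0.10 when the 3 libraries with genes at 0 noted above (CCR8- replicate 1, CCR8+ replicates 1 and 3) were left out. Its receptor Cd200r1 was 1973 ± 512 in CCR8+ and 1387 ± 403 in CCR8- cells (SD, n = 4 each, log2 fold change 0.53 ± 0.30 SE, exact permutation p = 0.143).

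By flow cytometry the study found LAG-3, the CD4 homolog that binds MHC class II, higher on CCR8+ than on CCR8- Tconv cells. The Lag3 transcript had few reads in these libraries. Its counts were 0, 12.5, 34.2 and 7.95 in CCR8- replicates 1 to 4 and 13.0, 9.24, 54.7 and 102 in CCR8+ replicates 1 to 4, from 63 and 188 recovered reads in all. The groups overlapped, and CCR8- replicate 1, where 3 reads would be 2.96 normalized counts, had no read. The log2 fold change of 1.90 ± 1.64 (SE, 95% interval -1.71 to 5.51, exact permutation p = 0.171) was too wide to give a direction at this depth.

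**Figure D4:**
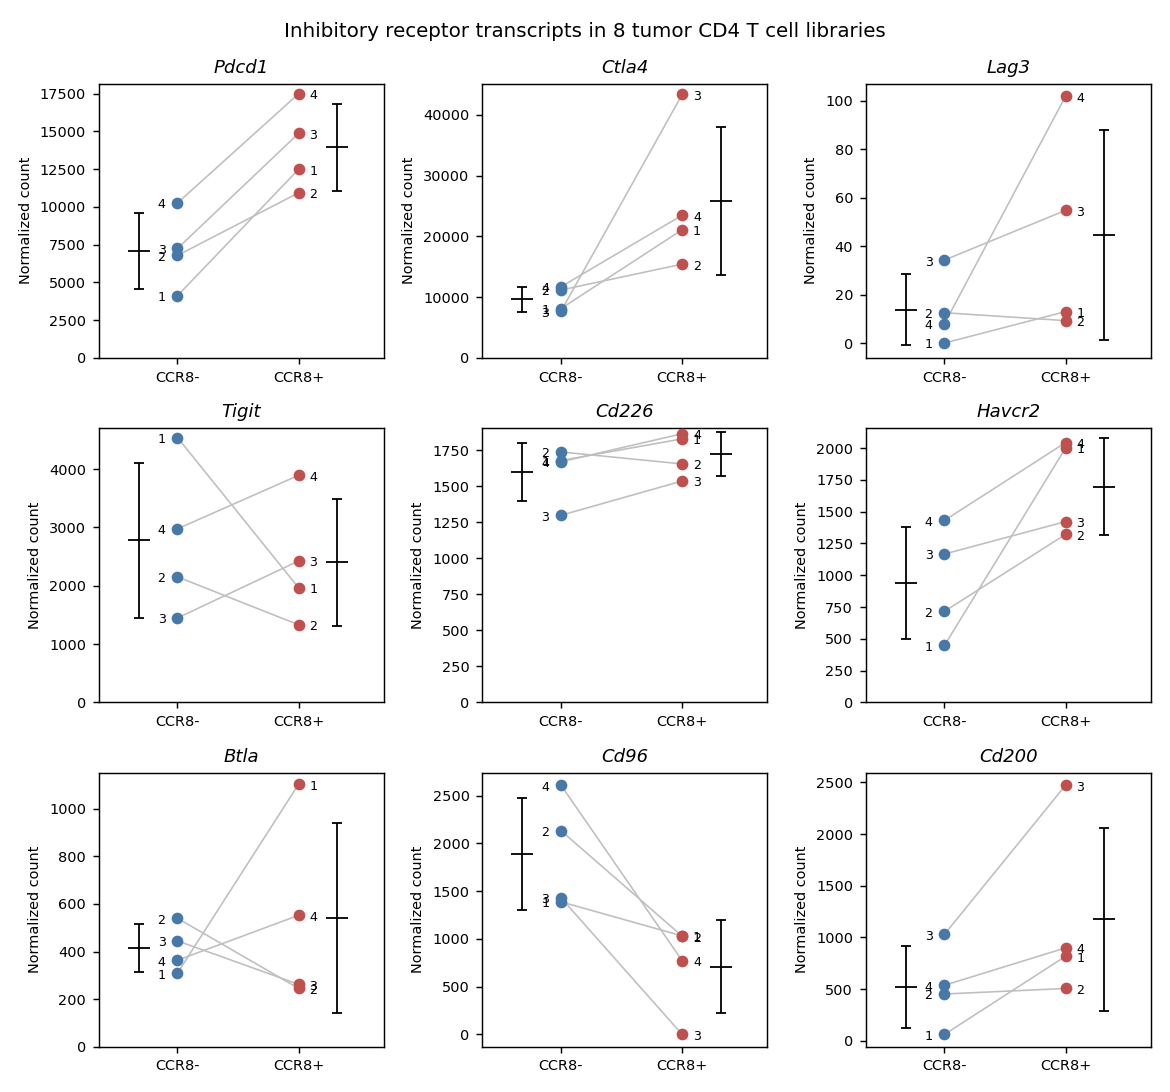
Normalized counts (y axes, separate scales from 0) of the 9 receptors in CCR8- (blue) and CCR8+ (red) libraries; gray lines join libraries of the same replicate number (printed beside each point), and bars are the mean and SD of 4. Ctla4 and Pdcd1 separate upward in CCR8+ cells, Cd96 separates downward, and the other 6 overlap.

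Tigit, Cd96 and Cd226 form the group of receptors with shared nectin ligands. Tigit was 4540, 2151, 1446 and 2974 in CCR8- replicates 1 to 4 and 1963, 1329, 2425 and 3893 in CCR8+ replicates 1 to 4. The groups interleaved, with CCR8+ higher in 2 of 4 same-numbered comparisons and the log2 differences running from -1.21 to 0.74. The log2 fold change was -0.19 ± 0.39 (SE, 95% interval -1.05 to 0.66, limma adjusted p = 0.93, exact permutation p = 0.686), and the interval reached to both sides of 0. Without CCR8- replicate 1 the log2 fold change was 0.085. By flow cytometry the study found TIGIT protein higher on CCR8+ than on CCR8- Tconv cells, a difference that these transcripts did not show.

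Cd226, the activating counterpart, was the most even of the 9. It was 1679, 1739, 1299 and 1671 in CCR8- replicates 1 to 4 and 1830, 1656, 1537 and 1865 in CCR8+ replicates 1 to 4. CCR8- replicate 3 stood lowest, and the other 7 libraries lay between 1537 and 1865. The log2 fold change was 0.11 ± 0.20 (SE, 95% interval -0.33 to 0.56, exact permutation p = 0.457), and it was -0.065 when the libraries were scaled to the T cell receptor complex genes Cd3d, Cd3e, Cd3g and Cd247.

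The ratio of Tigit to Cd226 counts was 2.70, 1.24, 1.11 and 1.78 in CCR8- replicates 1 to 4 and 1.07, 0.803, 1.58 and 2.09 in CCR8+ replicates 1 to 4. Only CCR8+ replicate 2 had fewer Tigit than Cd226 counts. The log2 ratio was 0.38 ± 0.61 in CCR8+ and 0.68 ± 0.58 in CCR8- cells (SD, n = 4 each), a difference of -0.31 (exact two-sided permutation p = 0.486), and it was higher in CCR8+ in 2 of 4 same-numbered comparisons. Per kilobase Tigit was above Cd226 in all 8 libraries, by between 4.27-fold and 14.4-fold. These values rest on the annotated exonic lengths of 0.919 kb for Tigit and 4.891 kb for Cd226, from a later build than the files use.

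Cd96, the third receptor of CD155, was 1388, 2133, 1430 and 2610 in CCR8- replicates 1 to 4 and 1031, 1029, 0 and 772 in CCR8+ replicates 1 to 4. Every CCR8+ library was below every CCR8- library, and CCR8+ was lower in 4 of 4 same-numbered comparisons. The means were 708 ± 487 and 1890 ± 589 (SD, n = 4 each), a ratio of means of 0.375. The value of 0 in CCR8+ replicate 3 was one of the 36 genes at 0 there with at least 100 in each other library, and 3 reads would have been 3.42 normalized counts. It widened the log2 fold change to -3.43 ± 1.84 (SE, 95% interval -7.47 to 0.61, limma adjusted p = 0.838, exact permutation p = 0.0286), which was -0.96 without that library. The ratio of Cd96 to Cd226 counts was 0.826, 1.23, 1.10 and 1.56 in CCR8- and 0.563, 0.621, 0 and 0.414 in CCR8+ replicates 1 to 4. The 2 CD8 T cell genes Cd8a and Cd8b1 together were also lower on average in CCR8+ cells, at 996 ± 352 against 1920 ± 1282 (SD, n = 4 each), with overlapping groups, and of the NK cell genes Klrb1c was at 0 in all 4 CCR8+ libraries and in 1 of the CCR8- libraries. CD8 T cells and NK cells express Cd96 as well, and their part in its difference was not tested.

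Btla, an immunoglobulin family receptor for the ligand HVEM, was 309, 539, 445 and 363 in CCR8- replicates 1 to 4 and 1102, 245, 262 and 552 in CCR8+ replicates 1 to 4. The CCR8+ libraries lay on both sides of the CCR8- range, and CCR8+ replicate 1 stood high. The log2 fold change was 0.13 ± 0.51 (SE, 95% interval -0.98 to 1.25, exact permutation p = 0.857) and -0.30 without CCR8+ replicate 1. Tnfrsf14, encoding HVEM, was at 0 in 5 of 8 libraries and at most 49.1.

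Across the 8 libraries, log2 values of Pdcd1 and Havcr2 were the most alike among pairs of members (Pearson r = 0.93, and 0.86 for deviations from the group means), followed by Lag3 and Cd200 (0.90 and 0.86) and Pdcd1 and Ctla4 (0.83 and 0.49). Ctla4 and Cd96 were the most opposed (-0.78 and -0.78), with CCR8+ replicate 3 highest in one and at 0 in the other. These values describe 8 libraries that share normalization and the difference between groups. The Lag3 correlations rest on 0 to 117 reads per library, and CCR8- replicate 1 was lowest in both Lag3 and Cd200. Among 8398 other genes with a mean of at least 100, the patterns nearest to Pdcd1 were those of Pebp1 (r = 0.98), Nop16 (0.97) and Dnajb2 (0.96). Nearest to Tigit were Dhrs3 (0.95), Mkrn1 (0.95) and Higd2a (0.93), and nearest to Cd226 were Lamtor5 (0.96), Zbtb43 (0.96) and Psma4 (0.95).

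The ligands of these receptors, with the CD200 receptor gene Cd200r1, were a list of 17 genes, of which 11 were tested and 0 were called. The groups did not overlap for 0 of the 11, beside 485 of all 11032 tested genes. The median log2 fold change was 0.15, with 7 above 0 and 4 below, beside 0.04 over all tested genes. Among those with a mean of at least 100, the largest differences in size were those of Cd86 (-2.02 ± 1.68 SE), Pvr (1.71 ± 1.63 SE) and Cd200r1, and the first 2 each had 1 library at 0. Lgals9, whose product galectin-9 binds TIM-3, was 4906 ± 1425 in CCR8+ and 4779 ± 1018 in CCR8- cells (SD, n = 4 each).

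A list of 24 genes held other costimulatory and inhibitory receptors and related surface proteins. Of these 24 genes, 22 were tested and 0 were called. Log2 fold changes were above 0 for 9 and below for 13, with a median of -0.14 beside 0.04 over all tested genes. The groups did not overlap for 2 of the 22, both lower in CCR8+ cells, where 2.03% of all tested genes were lower without overlap. Sit1, an inhibitory transmembrane adaptor that binds SHP-2, was 1614 ± 325 in CCR8+ and 3421 ± 1689 in CCR8- cells (SD, n = 4 each), a log2 fold change of -0.996 ± 0.31 (SE, limma adjusted p = 0.838). Slamf6, a receptor of the SLAM family named here after its values were seen, was 1632 ± 524 against 2502 ± 424 (log2 fold change -0.67 ± 0.29 SE). Cd160, which like BTLA binds HVEM, had a log2 fold change of -0.98 ± 0.67 and Cd244a, another SLAM family receptor, one of 0.78 ± 2.07 (SE), and both overlapped between groups.

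Of 26 genes of the signaling machinery around these receptors, all 26 were tested and 0 were called, with 8 log2 fold changes above 0, 18 below and a median of -0.32 beside 0.04 over all tested genes. Ptpn6 (SHP-1, -0.43 ± 0.34 SE), Ptpn11 (SHP-2, -0.63 ± 0.43 SE) and Inpp5d (SHIP1, -0.11 ± 0.28 SE), the phosphatases that inhibitory receptors recruit, overlapped between groups. Lax1, a membrane adaptor that dampens antigen receptor signals, was the 1 gene of the 26 whose groups did not overlap, beside 485 of all 11032 tested genes, and was named after its values were seen. It was 688 ± 119 in CCR8+ and 1603 ± 334 in CCR8- cells (SD, n = 4 each), a log2 fold change of -1.22 ± 0.26 (SE, limma adjusted p = 0.8286, exact permutation p = 0.0286). Pag1, the adaptor that anchors the kinase CSK at the membrane, had a log2 fold change of -1.92 ± 0.66 (SE), Csk itself -1.72 ± 0.99 and Rnf128, an E3 ubiquitin ligase linked to T cell anergy, 1.72 ± 0.83. The lowest Csk and Pag1 values, 25.1 and 71.8, and the highest Rnf128 value, 5436, were all in CCR8+ replicate 3, the library with the highest Ctla4 and Cd200 values.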

How the data were processed

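Tumor-infiltrating Tconv libraries were made with the Clontech Smarter low-input kit, and FastQC, Cutadapt, HTSeq and DESeq2 are named in the submitters' processing notes. Per the methods the authors aligned reads to NCBIM37 (mm9) with hisat2 kept uniquely mapped reads and scaled each library by its size, intergenic reads included. Versions, strandedness and the selection of the 11233 genes are not given in the sources used here. As deposited, each value is a signal, a read count divided by 1 factor per library, and every value was a whole multiple of that of 1 read (within 0.1 read, 100% of values), so reads could be recovered. Low-input amplification without molecular identifiers means that limits in reads cover counting error only. The number of per-sample columns that were not used was 0.

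Groups and replicate numbers were taken from the titles. Members and gene lists were chosen with earlier results of these data known. log2(normalized count + 1) was tested with limma 3.58.1 (R 4.3.3) and an intensity trend. The 11032 genes whose mean reached 10 were tested, and p-values were Benjamini-Hochberg adjusted and called under 0.05. Single values were tested by exact two-sided permutation over 70 assignments. Members were all named, and of each list the 3 genes with the largest log2 fold change in size and a mean of at least 100, plus ligands and partners that the members are known for. Exonic lengths came from GENCODE M21, which matched 10814 of 11233 genes. edgeR 4.0.16 and DESeq2 1.42.0 on recovered reads, other scalings, pseudocounts of 0.1 and 10, other filters, a replicate block and leaving out each library were alternatives. Leaving out 3 libraries together and DESeq2 without each library were chosen after seeing the data. The tests were run on simulated data first. Some list genes were not analysed or are not reported here.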

Additional observations from a re-analysis of the deposited data

Results flagged for a closer look

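In groups of 4 libraries, a value was marked where the gap of the highest or lowest library to its nearest neighbor, divided by the range of the group, was above the 95% critical value of Dixon's test. Of 22 groups examined 3 were marked, and chance marks about 1 group in 20 (5%). Cd226 in CCR8- cells was marked with 0.862, because replicate 3 at 1299 was below the other 3 libraries at 1671 to 1739. Cd96 in CCR8+ cells was marked with 0.958, because replicate 3 was at 0. The log2 ratio of Ctla4 to Cd28 in CCR8- cells was marked with 0.906, because replicate 4 at a ratio of 1.13 was above the other 3 at 0.892 to 0.912. What set these libraries apart was not tested.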

How the results depend on the processing

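Over all alternatives, 214 of 232 values of member log2 fold changes kept their direction and their side of the threshold, 11 passed it (10 of Ctla4 and 1 of Pdcd1, all by DESeq2) and 7 changed sign. The sign changes were those of Cd226 (-0.065) and Btla (-0.044) when libraries were scaled to the T cell receptor complex genes, which moved the median of all genes by -0.17, of Tigit and Btla with 1 library left out (ranges -0.46 to 0.085 and -0.30 to 0.42), and of Tigit (0.12) and Btla (-0.27) without the 3 libraries with genes at 0. The number of genes called was 2 by limma without the trend, 27 by DESeq2, and 0 in the other fits without a block, and leaving out 1 library gave 0 calls of limma in all 8 fits. Members called were 1 by DESeq2. The groups of Pdcd1, Ctla4 and Cd96 did not overlap in any of the 18 alternatives, and the number of non-overlapping members was 3 to 4. Only the other scalings could have made separate groups overlap, because fewer libraries, another pseudocount or another filter cannot. Same-numbered libraries had correlations of their deviations from the group means of 0.0682, 0.138, 0.108 and 0.217 (mean 0.133). Differently numbered ones had correlations of -0.17 to 0.10 (mean -0.038). Each CCR8+ library was most alike to the CCR8- library of its own number. Of the 4 same-numbered values 1 was under 0.1. The main tests used no block, because the study's methods name none and no source says what a number marks. With the replicate block limma called 1 gene and DESeq2 126, of which 2 were members (Ctla4, adjusted p 0.00894, and Pdcd1, log2 fold change 1.02 and adjusted p 0.00121), and edgeR with the block called 0 members. Within the block the Ctla4 to Cd28 log2 ratio was 1.42 with an exact permutation p of 0.125, the smallest possible with 4 pairs. The cause of these differences was not tested. Without CCR8- replicate 1 the median of all genes moved by -0.12. Lag3 was at 0 to 117 reads per library, so its direction was not detectable at this depth.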
